A study of Mus musculus with 3 samples.

Results

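Among the neurons sorted from the small intestine of 3 Ednrb-KO mice, some carried no UMI (counted mRNA molecule) of either gene that defines the main transmitter classes, *Nos1* (chromosome 5) for nitric oxide and *Chat* (chromosome 14) for acetylcholine. These cells were divided by the transcription factor genes *Etv1* (chromosome 12, 38779380 to 38870484, + strand) and *Bnc2* (chromosome 4, 84275095 to 84675275, - strand). A cell was placed on the Etv1 side with at least 2 UMIs of *Etv1* and 0 of *Bnc2*, and on the Bnc2 side with at least 1 UMI of *Bnc2* and 0 of *Etv1*. Cells whose deposited *Acta2* value, a natural log, reached 3.0 were left out, since *Acta2* encodes smooth muscle actin. The rule found 277 of the 2060 deposited cells, 152 on the Etv1 side (22, 78 and 52 in mice 1, 2 and 3) and 125 on the Bnc2 side (17, 68 and 40). Of the cells without *Nos1* and *Chat* and below the *Acta2* limit, 106 had exactly 1 UMI of *Etv1*, 60 had both genes and 205 had neither. The levels of *Etv1*, *Bnc2*, *Nos1*, *Chat* and *Acta2* chose the cells, so they are a description and were kept out of every test.

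The 3 mice were Ednrb-/- (Ednrb-KO, strain given as C57BL/6, postnatal day 14), a model of Hirschsprung disease, and each gave 1 library. Each also carried a Wnt1-Cre driver and a GCaMP5-tdTomato reporter, and tdTomato-positive cells were sorted from the longitudinal muscle with its myenteric plexus and sequenced on the 10X Genomics platform. The paper lists the parent *Ednrb* and reporter lines under stock names of mixed background. Wnt1-Cre labels cells derived from the neural crest, so the label does not tell neurons from glia, and the authors kept neurons by clustering. All 3 mice shared this genotype, so no comparison here is between *Ednrb* genotypes. *Ednrb* mRNA was still counted, at 267, 740 and 398 CPM (counts per 1000000 UMIs of the listed genes) on the Etv1 side and 279, 187 and 104 CPM on the Bnc2 side of mice 1, 2 and 3. Where the deletion lies relative to the counted mRNA end is not given in the sources used here, so these counts do not check the genotype.

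Enteric neurons take one of several fates after they leave the cell cycle. In the gut, *Etv1* is known to mark neurons that go on to make nitric oxide and the peptides VIP and galanin, which relax muscle, whereas *Bnc2* marks neurons that make acetylcholine, tachykinins and calretinin, many of which excite it. Peptides are packed with granins into dense-core granules, whereas acetylcholine is made in the terminal and loaded into small vesicles. Neurons that have not reached this state still express the genes of neurogenesis, such as ligands and modifiers of the Notch pathway.

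UMIs were summed over the cells of a side in each mouse. The Etv1 side held 82272, 539103 and 444363 UMIs in mice 1, 2 and 3 and the Bnc2 side 68169, 545530 and 345769, with a median of 3971 to 9674.5 and 4136 to 11472.5 UMIs per cell. In mouse 1, 1 UMI was worth 12.2 CPM on the Etv1 side and 14.7 CPM on the Bnc2 side, so a count of 0 there allows up to 36.5 and 44.0 CPM (3 UMIs, counting error only). Mouse 1 stood apart. Over all genes tested, its Etv1-side sum had a Pearson r with those of mice 2 and 3 of 0.67 and 0.70 on the log2 scale, against 0.95 between mice 2 and 3. Results are therefore also given for mice 2 and 3 alone, and with 2 mice the p-values rest mostly on a spread pooled over genes. Genes left out of the deposited table took 11.7%, 20.2% and 20.3% of the UMIs of the Etv1-side cells and 12.7%, 13.3% and 16.4% of those of the Bnc2 side. Only 2 cell barcodes occurred in more than 1 library, and 1 of the 4 cells concerned was on a side.

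The cells carried the mRNAs of neurons. *Elavl4*, which encodes a HuC/D RNA-binding protein, stood at 827, 703 and 556 CPM on the Etv1 side and at 1056, 911 and 992 CPM on the Bnc2 side of mice 1, 2 and 3. The 10 neuron markers together held 9262, 4830 and 5189 CPM on the Etv1 side and 7672, 7926 and 8240 CPM on the Bnc2 side. Mouse 1 thus ran opposite to mice 2 and 3. Of 14 markers of enteric glia, 12 passed the filter, and together the 14 held 2966, 2621 and 2547 CPM on the Etv1 side against 3829, 1540 and 1076 CPM on the Bnc2 side. The glial marker *Gfap* was at 0 to 12.2 CPM on either side. The 10 smooth muscle markers held 462 to 1217 CPM and 660 to 1426 CPM. Markers of leukocytes, endothelium, interstitial cells of Cajal, mesothelium, red blood cells and epithelium held at most 205 CPM per list on either side, and *Epcam*, a defining epithelial marker, was at 0 in every sum. Fibroblast markers reached 1325 CPM on the Etv1 side of mouse 1 and 469 CPM on its Bnc2 side, and otherwise 116 to 328 CPM.

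Of 7796 genes tested between the sides, 42 were called (0.539%), 11 higher on the Etv1 side and 31 higher on the Bnc2 side. The test was limma on log2(CPM + 10) with the mouse as a block, at a Benjamini-Hochberg adjusted p under 0.05 over all genes tested. All 42 moved the same way in 3 of 3 mice, with differences of 1.27 to 4.57 in size on the log2 scale. Peptides led the list in both directions. *Gal*, *Cartpt* and *Vip* were higher on the Etv1 side, and *Sst*, *Tac1* and the granule genes *Chgb* and *Scg2* on the Bnc2 side. The call depended on which cells and mice entered. Without mouse 1, 1190 of 7640 genes were called (15.6%), and without mouse 2 or mouse 3, 108 and 86. Without cells that carried a UMI of the glial gene *Sox10*, which left 13, 36 and 18 cells on the Etv1 side and 8, 34 and 24 on the Bnc2 side of mice 1, 2 and 3, 0 genes were called by limma with 3 mice (694 at an unadjusted p under 0.05), and 484 once mouse 1 was left out as well. Both settings were added once the results were known.

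**Figure D1:**
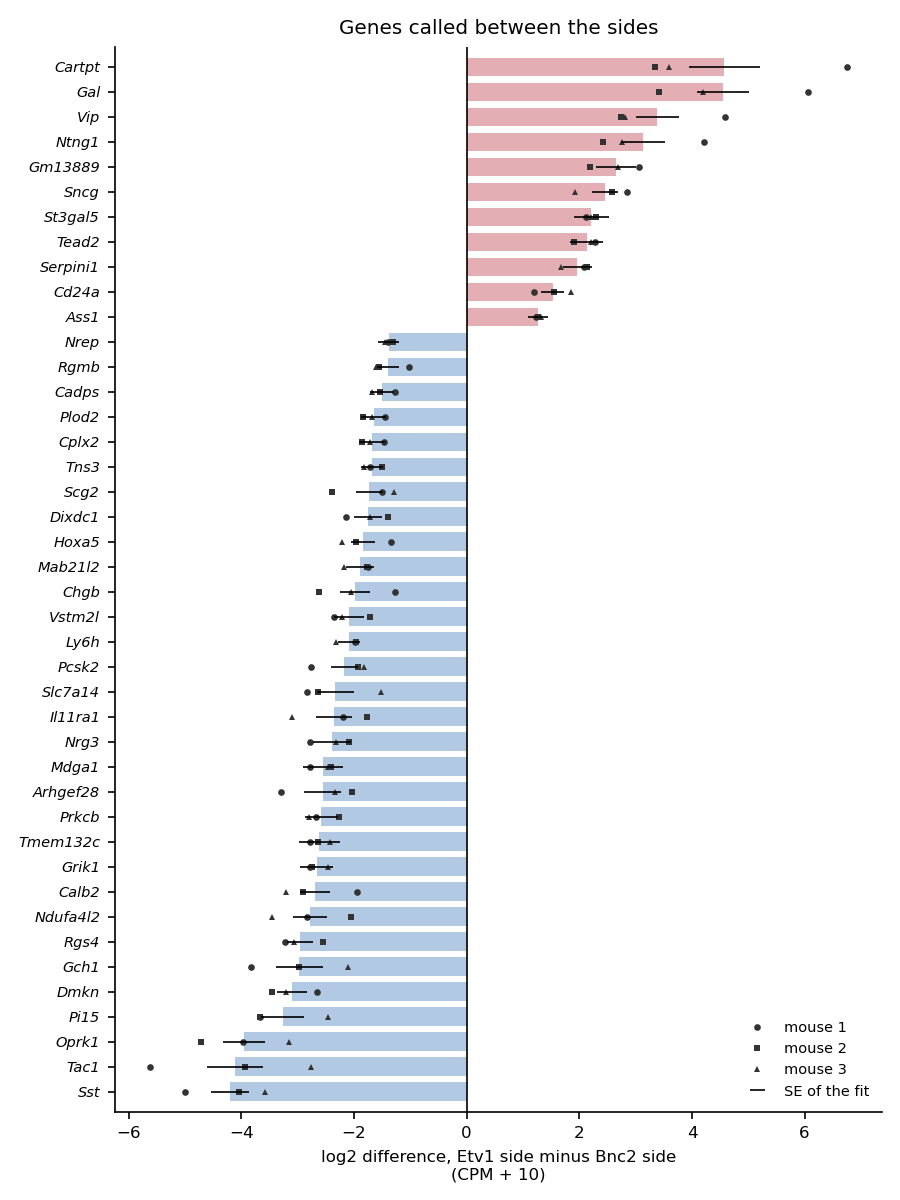
Log2 difference (Etv1 side minus Bnc2 side, CPM + 10) of the 42 genes called between the sides. Bars give the difference over 3 mice with its standard error from the fit and points the 3 mice. *Cartpt* (4.57) and *Gal* (4.55) head the genes higher on the Etv1 side, *Sst* (-4.20) and *Tac1* (-4.11) those higher on the Bnc2 side, and all points lie on the side of their bar.

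Of 7 tested genes of the list of inhibitory motor neuron peptides and granins, 3 were called higher on the Etv1 side (*Gal*, *Cartpt* and *Vip*) and 2 lower (*Chgb* and *Scg2*), against 0.539% of all genes called. *Adcyap1*, the gene of the peptide PACAP, and the granin gene *Chga* were not called over 3 mice. *Gal*, which encodes galanin (chromosome 19, 3409915 to 3414544), stood at 1629, 2111 and 2664 CPM on the Etv1 side of mice 1, 2 and 3 and at 14.7, 189 and 136 CPM on the Bnc2 side. Every Etv1-side value was above every Bnc2-side value, with a log2 difference of 4.55 ± 0.46 (SE, n = 3 mice, limma adjusted p = 0.0287). *Cartpt*, which encodes the CART peptide (chromosome 13, 99898489 to 99901091), stood at 1070, 766 and 673 CPM against 0, 66.0 and 46.3 CPM, a log2 difference of 4.57 ± 0.63 (limma adjusted p = 0.0465). *Vip*, the gene of vasoactive intestinal peptide (chromosome 10, 5639218 to 5647617), stood at 583, 621 and 749 CPM against 14.7, 84.3 and 98.3 CPM. Its log2 difference was 3.38 ± 0.38 (limma adjusted p = 0.0376), and again no value overlapped. The Bnc2-side values of mouse 1 for these 3 genes came from at most 1 UMI each. Without mouse 1 the log2 differences were smaller, at 3.81 ± 0.19 for *Gal*, 3.48 ± 0.18 for *Cartpt* and 2.78 ± 0.18 for *Vip* (limma adjusted p = 9.07e-14, 2.34e-13 and 8.15e-12). *Grp*, which encodes gastrin-releasing peptide, followed the same order at 705, 568 and 1188 CPM against 0, 88.0 and 119 CPM, but was not called (log2 difference 3.98 ± 0.63, limma adjusted p = 0.065) until mouse 1 was left out (2.89 ± 0.19, adjusted p = 8.42e-12).

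Other peptide genes ran the opposite way. *Sst*, which encodes somatostatin (chromosome 16, 23889573 to 23890958), stood at 0, 20.4 and 18.0 CPM on the Etv1 side and at 308, 489 and 324 CPM on the Bnc2 side, a log2 difference of -4.20 ± 0.33 (limma adjusted p = 0.0254). These values came from few cells. On the Bnc2 side 14 of 125 cells carried *Sst*, 1 cell held 36.5% of its UMIs, and in mouse 1 all 21 UMIs were in 1 cell, without which the value was 0. *Tac1*, the gene of substance P (chromosome 6, 7554879 to 7565834), stood at 0, 68.6 and 72.0 CPM against 484, 1186 and 547 CPM, a log2 difference of -4.11 ± 0.50 (limma adjusted p = 0.0421). *Calb2*, which encodes the calcium-binding protein calretinin (chromosome 8), stood at 194, 167 and 133 CPM against 777, 1312 and 1304 CPM, a log2 difference of -2.68 ± 0.27 (limma adjusted p = 0.0287). The groups did not overlap for either gene. Without mouse 1 the log2 differences of *Sst*, *Tac1* and *Calb2* were -3.81, -3.34 and -3.05. *Penk*, which encodes the enkephalins, was not called over 3 mice and differed between them. In mice 2 and 3, where 15.6% of all genes were called, limma called *Penk* lower on the Etv1 side. It stood at 705, 92.7 and 83.3 CPM on the Etv1 side against 161, 361 and 174 CPM on the Bnc2 side, so that mouse 1 ran opposite to the other mice.

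**Figure D2:**
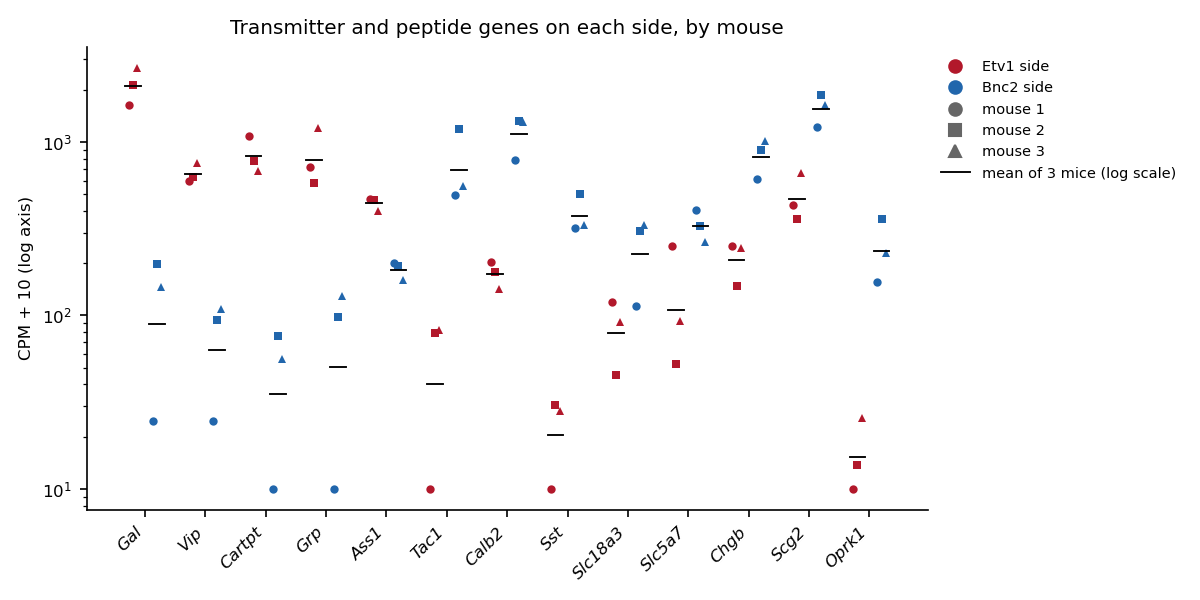
Level of 13 transmitter, peptide and granule genes (CPM + 10, log axis) in the summed cells of each side, with 1 point per mouse and a line at the mean of 3 mice on the log scale. *Gal*, *Vip*, *Cartpt*, *Grp* and *Ass1* lie higher on the Etv1 side in every mouse, *Tac1*, *Calb2*, *Sst*, *Chgb*, *Scg2* and *Oprk1* on the Bnc2 side, and *Slc18a3* overlaps in mouse 1, at 109 and 103 CPM.

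The promoters of the peptide and granin genes called are shown because these genes separate the sides and because cyclic AMP-response elements are known in several of them. All 7 such genes (*Cartpt*, *Chgb*, *Gal*, *Scg2*, *Sst*, *Tac1* and *Vip*) matched an entry of the RefSeq promoter table (GRCm38.p6). The full cyclic AMP response element, TGACGTCA, which reads the same on both strands, was found in the 250 bases before the start of 4 of them, and in 508 of all 32851 promoters (1.55%). The windows run from 130 to 31 bases before the start, 5′ to 3′ on the strand of the gene, with the element in capitals:

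Cartpt: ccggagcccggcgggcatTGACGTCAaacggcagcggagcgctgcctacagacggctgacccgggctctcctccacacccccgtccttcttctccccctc

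Chgb: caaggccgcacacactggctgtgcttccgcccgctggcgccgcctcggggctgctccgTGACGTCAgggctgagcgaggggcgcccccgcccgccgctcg

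Scg2: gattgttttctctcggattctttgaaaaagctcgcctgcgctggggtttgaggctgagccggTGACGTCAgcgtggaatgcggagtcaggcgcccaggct

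Sst: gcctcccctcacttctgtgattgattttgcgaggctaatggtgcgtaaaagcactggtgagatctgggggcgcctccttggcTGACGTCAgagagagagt

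They lie at chr13:99900714-99900813 (- strand, *Cartpt*), chr2:132781512-132781611 (+ strand, *Chgb*), chr1:79440057-79440156 (- strand, *Scg2*) and chr16:23890875-23890974 (- strand, *Sst*), and the element begins 112, 72, 68 and 48 bases before the RefSeq start. The GENCODE M21 spans of these 4 genes reach further upstream than these RefSeq starts, so the windows lie wholly or partly inside them. *Cartpt*, higher on the Etv1 side, and the other genes, higher on the Bnc2 side, thus share these letters. The ETS motif CCGGAAGT, searched on both strands because *Etv1* encodes an ETS factor, was in 0 of the 7 promoters and in 2.88% of all, and its letters do not overlap those of the element. Both motifs were picked with these results known, and a match or its absence describes letters in the window and not a bound site.

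The genes of acetylcholine handling were not called over 3 mice, but several were called in mice 2 and 3. *Slc18a3*, the vesicular acetylcholine transporter (chromosome 14, 32462438 to 32464850), stood at 109, 35.2 and 81.0 CPM on the Etv1 side and at 103, 295 and 321 CPM on the Bnc2 side. The sides overlapped through mouse 1, where the log2 difference was close to 0, and over 3 mice it was -1.51 ± 0.50 (limma adjusted p = 0.34), but -2.31 ± 0.22 in mice 2 and 3 (adjusted p = 1.39e-08). *Slc18a3* lies within *Chat* on the same strand, so its reads and those of *Chat* may not be told apart in counting. *Slc5a7*, the choline transporter, stood at 243, 42.7 and 83.3 CPM against 396, 317 and 255 CPM, lower on the Etv1 side in each mouse and without overlap. In mice 2 and 3 its log2 difference was -2.07 ± 0.23 (limma adjusted p = 1.8e-07), and over 3 mice -1.61 ± 0.37 (adjusted p = 0.165). Of 8 genes of acetylcholine handling and reception tested, 0 were called over 3 mice and 6 were called lower on the Etv1 side in mice 2 and 3, where 15.6% of all genes were called, with a median log2 difference of -1.08 and -1.25, against 0.0076 and 0.018 over all genes.

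The genes that serve nitric oxide synthesis did not move together. *Ass1*, which makes argininosuccinate in the recycling of citrulline to arginine, stood at 462, 454 and 389 CPM on the Etv1 side and at 191, 183 and 150 CPM on the Bnc2 side, a log2 difference of 1.27 ± 0.18 (limma adjusted p = 0.047). *Gch1*, whose enzyme starts the synthesis of the cofactor tetrahydrobiopterin, ran the other way, at 0, 11.1 and 11.3 CPM against 132, 156 and 81.0 CPM (log2 difference -2.97 ± 0.41, limma adjusted p = 0.0465). Neither gene overlapped between the sides. The other 8 of the 10 genes of this list that were tested were not called over 3 mice, where 0.539% of all genes were called. *Asl*, the next enzyme of citrulline recycling, stood at 85.1, 51.9 and 36.0 CPM against 103, 143 and 124 CPM. It was not called over 3 mice (log2 difference -1.03 ± 0.33, limma adjusted p = 0.312). In mice 2 and 3, where 15.6% of all genes were called, 3 of the 10 were called lower (*Asl*, *Ddah1* and *Gch1*) and 2 higher (*Ass1* and *Pcbd1*). Of 4 amine and glutamate genes tested, none was called over 3 mice by limma. *Dbh*, which converts dopamine to noradrenaline, stood at 109, 53.8 and 81.0 CPM on the Etv1 side against 0, 16.5 and 11.6 CPM (log2 difference 2.31 ± 0.49, adjusted p = 0.141) and was called in mice 2 and 3 (1.67 ± 0.32, adjusted p = 0.000433).

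Among the other genes called higher on the Bnc2 side were 2 of 3 granin genes tested and 2 of 13 receptor genes. Over 3 mice 0.539% of all genes tested were called, and the 2 granin genes were already counted above in the peptide list. *Scg2* stood at 425, 349 and 657 CPM on the Etv1 side and at 1218, 1870 and 1625 CPM on the Bnc2 side, and *Chgb* at 243, 137 and 234 CPM against 601, 895 and 1004 CPM. Both encode granins, and their log2 differences were -1.73 ± 0.25 and -1.98 ± 0.27 (limma adjusted p = 0.047 and 0.0465). *Chga*, the third granin gene, stood at 109, 104 and 92.3 CPM against 73.3, 253 and 211 CPM, with mouse 1 opposite to the other mice. It was not called over 3 mice (-0.60 ± 0.37, limma adjusted p = 0.576). In mice 2 and 3, where 15.6% of all genes were called, all 3 granin genes were called lower on the Etv1 side. *Pcsk2*, a convertase that cuts peptide precursors, differed by -2.17, *Cadps*, which primes dense-core granules, by -1.49, and *Cplx2*, a complexin of the vesicle fusion machinery, by -1.68, and the first pair were named after their values were seen. *Oprk1*, the kappa opioid receptor (chromosome 1), stood at 0, 3.71 and 15.8 CPM on the Etv1 side against 147, 348 and 220 CPM, a log2 difference of -3.95 ± 0.37 (limma adjusted p = 0.0263). *Grik1*, a kainate receptor subunit, was the other called gene of the 13 receptor genes tested, with a log2 difference of -2.66. None of 18 ion channel genes was called over 3 mice by limma, and 8 of the 14 tested in mice 2 and 3 were called lower on the Etv1 side, against 15.6% of all genes called there. *Rgs4*, which speeds the switching off of G proteins, differed by -2.95, at 36.5, 64.9 and 47.3 CPM against 425, 431 and 471 CPM. *Pi15*, *Dmkn* and *Ndufa4l2*, at 0 to 13.5, 22.3 to 24.8 and 24.3 to 104 CPM on the Etv1 side, were the other genes among the 10 with the largest differences in this direction, with -3.27, -3.10 and -2.78.

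The genes higher on the Etv1 side also included 7 outside the peptides and *Ass1*. *Sncg*, which encodes gamma-synuclein of axon terminals, stood at 1228, 557 and 1229 CPM against 161, 84.3 and 315 CPM, a log2 difference of 2.46 ± 0.23 (limma adjusted p = 0.0263). Against 0.539% of all genes, 1 of 21 axon guidance and adhesion genes tested was called. This was *Ntng1*, the axonal adhesion protein netrin-G1, which stood at 450, 132 and 194 CPM against 14.7, 16.5 and 20.2 CPM, a log2 difference of 3.13 ± 0.39 (limma adjusted p = 0.0465). *Tead2*, a transcription factor of the Hippo pathway, stood at 109, 89.0 and 131 CPM against 14.7, 16.5 and 20.2 CPM. *Cd24a*, a small surface glycoprotein of young neurons, stood at 851, 384 and 527 CPM against 367, 125 and 139 CPM. In none of these genes did the sides overlap, and the log2 differences of the last pair were 2.13 and 1.53. *St3gal5*, which makes the ganglioside GM3, and *Serpini1*, the protease inhibitor neuroserpin, followed with 2.21 and 1.97.

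The peptide mRNAs of the Etv1 side were held by a minority of its cells. Of its 152 cells, 34 carried at least 10 UMIs of *Gal*, *Vip* or *Cartpt*, with 4 of 22, 22 of 78 and 8 of 52 cells in mice 1, 2 and 3. These are 18.2%, 28.2% and 15.4% of the cells, and the exact Clopper-Pearson 95% intervals, 5.19% to 40.3%, 18.6% to 39.5% and 6.88% to 28.1%, overlap. The Bnc2 side had 0 of 125 such cells, which allows a share of up to 2.4% by the limit of 3 counts with the mice pooled, and by mouse the exact upper bounds were 19.5%, 5.28% and 8.81%. *Gal*, *Vip* and *Cartpt* were called higher on the Etv1 side in these same cells, so the counts restate that call and are not separate support. *Grp*, which was not called over 3 mice, reached 10 UMIs in 9 Etv1-side and 4 Bnc2-side cells. Of the Etv1-side *Gal* UMIs, 92.1% lay in 29 cells and 21.1% in 1 cell, and without the highest cell of each mouse the level was 441, 1646 and 1542 CPM. For *Vip* 83.2% lay in 11 cells and 30.6% in 1 cell, and for *Cartpt* 82.4% in 11 cells and 23.9% in 1 cell. At least 1 UMI of *Gal* was found in 111 Etv1-side cells and in 84 Bnc2-side cells, where the highest count was 5. In *Bnc2* cells that carried *Chat* 92 of 131 had a UMI of *Gal*, with at most 6, at a median of 9228 UMIs per cell against 7635.5 on the Etv1 side and 9088 on the Bnc2 side, so shares of cells with 1 UMI are not read as expression.

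A set of *Tac1*, *Calb2* and the acetylcholine genes *Slc18a3* and *Slc5a7* showed the converse. *Tac1* and *Calb2* were called lower on the Etv1 side in these same cells, so these counts are not separate support either. At least 10 UMIs of *Tac1*, *Calb2*, *Slc18a3* or *Slc5a7* were found in 55 of 125 Bnc2-side cells, or 2 of 17, 33 of 68 and 20 of 40 in mice 1, 2 and 3, and in 6 of 152 Etv1-side cells. Mouse 1 was lowest, at 11.8% with an exact interval of 1.46% to 36.4%, and its cells had the fewest UMIs. By gene, *Calb2* and *Tac1* reached 10 UMIs in 37 and 24 of the 125 cells, and *Slc18a3* and *Slc5a7* in 3 and 6. *Calb2* also did so in 56 of 638 *Nos1*-positive *Etv1* cells. For any gene of the set, *Bnc2* cells with a UMI of *Chat* gave 57 of 131, a share of 43.5% next to 44.0% on the Bnc2 side. Among *Etv1* cells with *Nos1*, in contrast, 464 of 638 carried at least 10 UMIs of *Gal*, *Vip* or *Cartpt*, which is 42.5%, 79.5% and 73.5% in mice 1, 2 and 3. The cut of 10 UMIs was not adjusted for depth. *Nos1*-positive *Etv1* cells had a median of 3974, 10837 and 10086 UMIs in mice 1, 2 and 3, and 9732 in all against 7635.5 on the Etv1 side. Only 3 Etv1-side cells, all in mouse 2, held at least 10 UMIs of both gene sets.

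**Figure D3:**
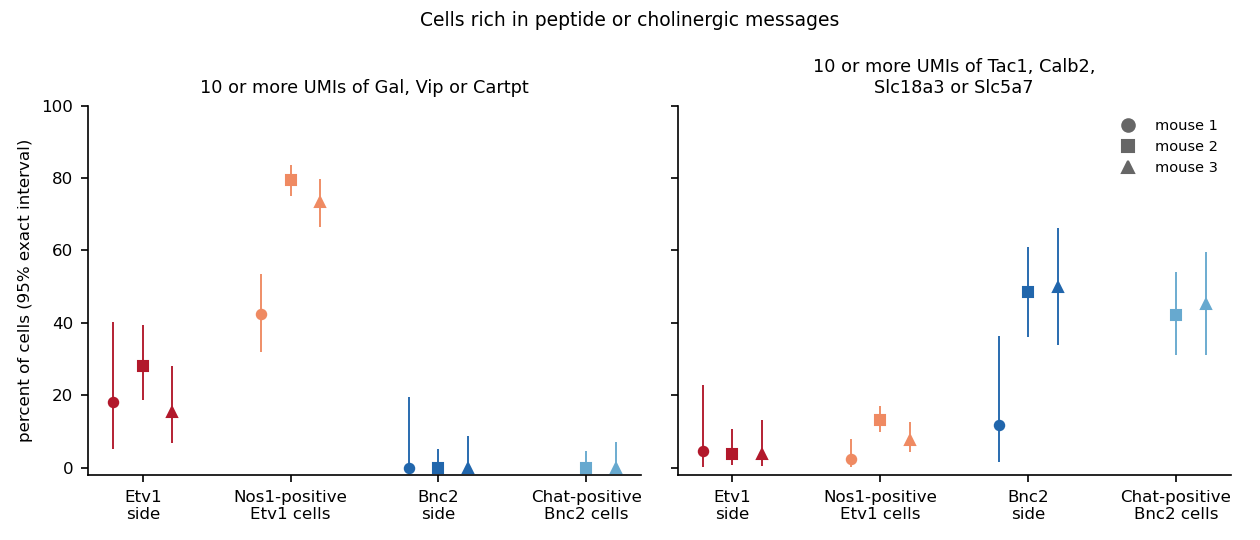
Percent of cells with at least 10 UMIs of any of 3 peptide genes (left) or of any of *Tac1*, *Calb2*, *Slc18a3* and *Slc5a7* (right) in 4 sets of cells, by mouse, with exact 95% intervals for counting error. *Chat*-positive *Bnc2* cells of mouse 1 are not drawn because there were 2. Cells with at least 10 UMIs of *Gal*, *Vip* or *Cartpt* make up 15.4% to 28.2% of the Etv1 side and 42.5% to 79.5% of *Nos1*-positive *Etv1* cells. They make up 0% of both *Bnc2* sets, whose cells can be rich in other peptide genes such as *Tac1*.

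Near the thresholds of the rule the level of *Gal* is given as a description. It was 2994, 2241 and 3528 CPM in mice 1, 2 and 3 in the 93 Etv1-side cells with over 2 UMIs of *Etv1*. In the 59 cells with exactly 2 it was 152, 1859 and 216 CPM, and in the 106 cells just outside, with exactly 1, it was 697, 1844 and 842 CPM. On the Bnc2 side *Calb2* was at 574, 988 and 1562 CPM in the 56 cells with exactly 1 UMI of *Bnc2* and at 1688, 1516 and 1181 CPM in the 69 with more, of which 3 were in mouse 1, and the order differed between mice. The *Acta2* limit kept out 4 cells from the Etv1 side and 9 from the Bnc2 side. Of those 4 cells, the 2 of mouse 1 held *Gal* at 6567 CPM and the 2 of mouse 2 at 144416 CPM.

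In mice 2 and 3, several neurogenic genes were also higher on the Etv1 side. *Hes6*, which promotes neuronal differentiation, stood at 48.6, 360 and 277 CPM against 29.3, 105 and 101 CPM. In mouse 1 it was found in 3 of 22 and 2 of 17 cells, and 3 UMIs are 36.5 and 44.0 CPM there, so its order is not read. The log2 difference of *Hes6* was 1.53 ± 0.19 in mice 2 and 3 (limma adjusted p = 1.26e-06) and 1.21 ± 0.29 over 3 mice (adjusted p = 0.178). *Sox4*, a transcription factor of young neurons, stood at 511, 998 and 983 CPM against 499, 407 and 393 CPM. The sides lay close together in mouse 1 and apart in mice 2 and 3, where the log2 difference was 1.29 ± 0.17 (limma adjusted p = 4.04e-06). Of 14 neurogenic and immature neuron genes tested, 0 were called over 3 mice and 7 were called higher in mice 2 and 3, where 15.6% of all genes were called, *Dll3*, *Gadd45g*, *Hes6*, *Insm1*, *Mfng*, *Rgs16* and *Sox4*. *Dll3* encodes a Notch ligand and *Mfng* a sugar transferase that modifies Notch. *Mfng* stood at 0, 154 and 128 CPM on the Etv1 side against 14.7, 51.3 and 49.2 CPM on the Bnc2 side, so that mouse 1 ran opposite to the other mice. The tubulin and doublecortin genes *Tubb2b* and *Dcx*, which mark migrating young neurons, were called lower. The median log2 difference of the list was 0.39 over 3 mice and 0.84 in mice 2 and 3, against 0.0076 and 0.018 over all genes. Of 5 cell cycle genes tested over 3 mice and 2 tested in mice 2 and 3, limma called 0. The genes of this paragraph and the next were named after their values were seen.

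In the same pair of mice, 4 receptor genes were called higher on the Etv1 side, *Ednrb*, *Ret*, *Gfra1* and *Ngfr*, and *Gfra2*, a GDNF-family co-receptor, was called lower, out of 7 tested. *Ednrb*, at the values given above, had a log2 difference of 1.88 ± 0.18 (limma adjusted p = 1.39e-08) in mice 2 and 3 and 1.24 ± 0.40 (adjusted p = 0.317) over 3 mice. *Ret*, the GDNF receptor kinase, stood at 194, 200.3 and 184 CPM against 103, 139 and 95.4 CPM. Of 35 transcription factor genes, 12 were called higher and 8 lower in mice 2 and 3, where 15.6% of all genes were called, and 0 over 3 mice. *Bcl11b* and *Ebf1*, at 36.5, 55.6 and 81.0 CPM and at 85.1, 57.5 and 117 CPM on the Etv1 side against 0 to 7.33 and 0 to 20.2 CPM, were among the former, and *Satb1* and *Casz1* among the latter. *Satb1* stood at 85.1, 64.9 and 72.0 CPM against 205, 314 and 321 CPM, with no overlap, at -2.06 ± 0.19 in mice 2 and 3 (limma adjusted p = 1.39e-08). Of 34 genes of the neuronal cytoskeleton and maturation, 20 were called lower on the Etv1 side and 3 higher in mice 2 and 3, and over 3 mice 1 lower (*Cplx2*) and 1 higher (*Sncg*). In mouse 1 the summed level of this list was higher on the Etv1 side, at 20079.7 against 15109.5 CPM. *Snap25*, of the synaptic fusion complex, stood at 340, 169 and 175 CPM against 660, 585 and 541 CPM and was not called over 3 mice (-1.41 ± 0.22, limma adjusted p = 0.0596). Glial markers moved with these genes, since 10 of the 12 tested were called higher on the Etv1 side in mice 2 and 3, among them *Sox2*, which neural progenitors also express, and *Sox10*, which stood at 316, 187 and 221 CPM against 279, 136 and 113 CPM in mice 1, 2 and 3. Their part in the result was not tested.

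**Figure D4:**
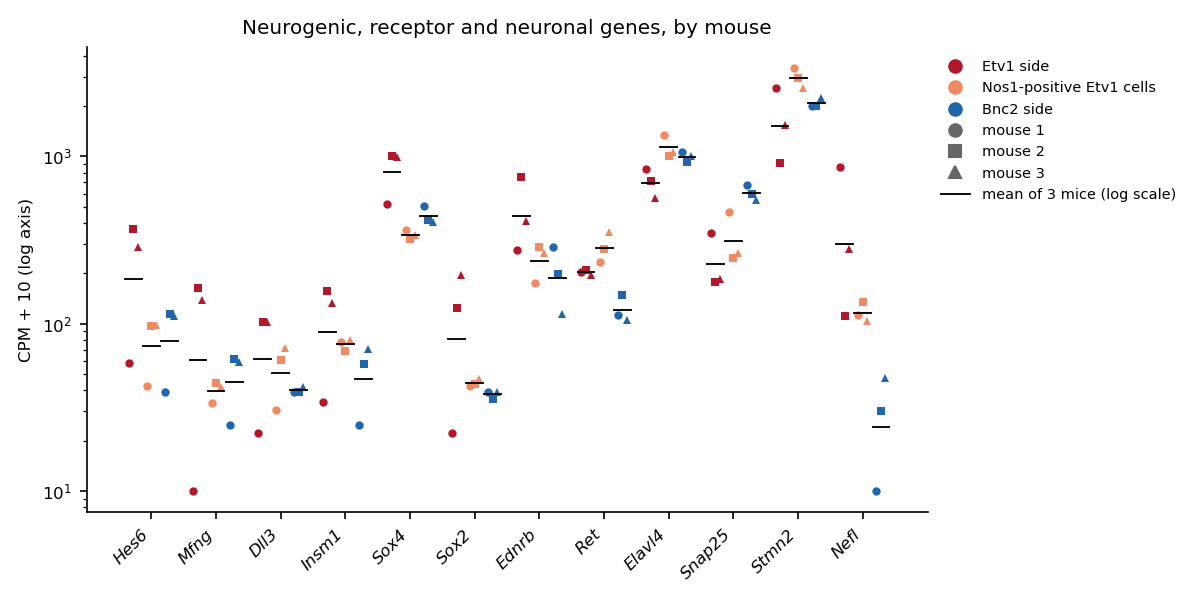
Level of 12 neurogenic, receptor and neuronal genes (CPM + 10, log axis) by mouse in the Etv1 side, *Nos1*-positive *Etv1* cells and the Bnc2 side, with a line at the mean of 3 mice on the log scale. For *Hes6* mice 2 and 3 of the Etv1 side lie at 360 and 277 CPM, above both other sets, and mouse 1 at 48.6 CPM.

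The Etv1 side was compared with the *Etv1* cells that carried *Nos1*, chosen by the same limits on *Etv1*, *Bnc2*, *Chat* and *Acta2* (87, 370 and 181 cells in mice 1, 2 and 3). Of 7675 genes tested, 103 were called (1.34%), 29 higher and 74 lower without *Nos1*. Cell type markers moved as well. In mice 2 and 3, where 24.7% of all genes were called, 10 of 12 glial markers and 11 of 14 neurogenic genes were called higher and 9 of 10 neuron markers lower on the Etv1 side, against 1, 0 and 0 called over 3 mice, and red blood cell markers held 5015 CPM in *Nos1*-positive cells of mouse 3. Their part in the results of this comparison was not tested. *Ass1*, the citrulline enzyme, stood at 462, 454 and 389 CPM without *Nos1* and at 2039, 1928 and 1568 CPM with it, a log2 difference of -2.05 ± 0.13 (limma adjusted p = 0.00658). *Gal* stood at 1629, 2111 and 2664 CPM against 6871, 14177 and 8981 CPM, a log2 difference of -2.19 ± 0.21 (limma adjusted p = 0.0218). No value overlapped for either gene. *Npy*, the gene of neuropeptide Y, stood at 12.2, 55.6 and 13.5 CPM against 174, 166 and 121 CPM (-2.32 ± 0.33, limma adjusted p = 0.037). *Vip* and *Cartpt* were not called over 3 mice, with log2 differences of -0.56 ± 0.21 and -0.80 ± 0.33 (limma adjusted p = 0.228 and 0.268). In mice 2 and 3, where 24.7% of all genes were called, both were called lower without *Nos1*. There 6 of 7 tested genes of the list of inhibitory peptides and granins were called lower. The 5 genes with the largest negative differences were *Rprml* (-2.74), the guidance receptor *Epha5* (-2.64), *Thsd7b* (-2.55), *Pid1* (-2.55) and *Npy*.

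Some peptide and transcription factor genes were higher without *Nos1*. *Grp* stood at 705, 568 and 1188 CPM on the Etv1 side against 73.8, 117 and 359 CPM in *Nos1*-positive cells, a log2 difference of 2.32 ± 0.26 (limma adjusted p = 0.0292), and 27.6% of its Etv1-side UMIs lay in 1 cell. Without the highest cell of each mouse it stood at 348, 180 and 661 CPM. *Tead2* stood at 109, 89.0 and 131 CPM against 11.8, 25.6 and 21.9 CPM, a log2 difference of 2.02 ± 0.26 (limma adjusted p = 0.0358). The sides did not overlap for either gene. *Cck*, which encodes cholecystokinin, stood at 36.5, 81.6 and 49.5 CPM against 0, 10.3 and 12.5 CPM and differed by 1.93, *St3gal5* by 1.82, *Bcl11b* by 1.81 and *Dbh* by 1.76. *Etv1* itself, used by the rule, was at 936, 553 and 538 CPM on the Etv1 side and at 1298, 926 and 918 CPM in *Nos1*-positive cells. Without mouse 1, 1868 of 7551 genes were called (24.7%), without mouse 2, 14, and without mouse 3, 132. Absence of a *Nos1* UMI depended on depth. After every cell was thinned to 3000 UMIs and the rule applied again, 42 of the 104 cells on the Etv1 side had carried *Nos1* before thinning, and 2 genes were called. Of the 130 cells then on the Bnc2 side, 39 had carried *Chat* and 16 *Nos1* before, and 67 had been on that side. With mouse 1 also left out, a setting added after the results were known, the *Gal* difference turned to 0.59.

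Between the Bnc2 side and the *Bnc2* cells with *Chat* (2, 78 and 51 cells) limma called 0 of 7421 genes (0%), with 109 at an unadjusted p under 0.05. The set with *Chat* held 5363 UMIs in mouse 1, so mice 2 and 3 carry this comparison, and there 7 of 7609 genes were called (0.092%). *Sst* stood at 489 and 324 CPM without *Chat* and at 75.1 and 11.6 CPM with it in mice 2 and 3, a log2 difference of 3.25 ± 0.25 (limma adjusted p = 4.36e-33). *Grp* stood at 88.0 and 119 CPM against 16.3 and 9.25 CPM (2.32 ± 0.31, limma adjusted p = 3.38e-10), and *Calcb*, the gene of a calcitonin gene-related peptide, at 82.5 and 136 CPM against 32.7 and 9.25 CPM (2.02 ± 0.30, adjusted p = 2.11e-08). The *Sst* values of the Bnc2 side in these mice rest on 7 and 6 cells with a UMI and those of *Grp* on 10 and 5, and for each gene 2 cells per mouse held at least 10 UMIs. In this fit of 2 mice the SEs and adjusted p-values come from a spread pooled over genes, and do not measure the spread between the mice for a gene. *Tac1* and *Calb2* were not called, with log2 differences of -0.27 ± 0.27 and -0.02 ± 0.29. *Slc18a3* stood at 295 and 321 CPM against 314 and 335 CPM, a difference of -0.07 ± 0.25.

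Whether the contrast between the sides was of the same size in cells with transmitter genes was tested as a difference of differences, (Etv1 side minus Bnc2 side) minus (*Nos1*-positive *Etv1* cells minus *Chat*-positive *Bnc2* cells). Limma called 0 of 7659 genes (0%), with 189 at an unadjusted p under 0.05. In mice 2 and 3, 273 of 7631 were called (3.58%). The estimate for *Gal* was -2.52 ± 0.90 and for *Cartpt* -0.69 ± 0.88 over 3 mice (limma adjusted p = 0.787 and 0.791). The median of all genes was -0.5 in this test and 0.60 in the one before, against 0.029 and 0.011 without mouse 1, so these estimates are to be read against it.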

How the data were processed

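Single-cell RNA was measured in 3 libraries, 1 per mouse, each from a separate animal. The authors counted UMIs with Cell Ranger on mm10 (submitters' processing notes; the version is not given in the sources used here), filtered cells by genes and mitochondrial share, combined the mice, took out confounding genes and non-neuronal cells, and deposited natural log values, ln(1 + UMIs per 10000 UMIs of the cell).

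UMIs were recovered by dividing by the smallest value above 0 of each cell after reversing the log. All 6435281 values above 0 (100%) came out whole within 1e-06. UMIs were summed per set of cells and mouse, scaled to the 33353 listed genes (CPM), and tested with limma 3.58.1 (R 4.3.3, trend) on log2(CPM + 10), which understates the change of low genes, with a filter at a mean of 20 CPM, the mouse as block and Benjamini-Hochberg adjustment at 0.05. Etv1-side and Bnc2-side sums of the same mouse come from the same animal, and their deviations from the side means correlated at 0.40, 0.31 and 0.33 in mice 1, 2 and 3 over 7796 genes. The script was tested on simulated data. Intervals are exact Clopper-Pearson at 95% (scipy 1.17.1), for counting error only. No doublet caller was run, and a fit without the deepest 5% of cells was tried instead. Gene positions are GENCODE M21 on GRCm38, and the annotation behind the deposited counts is not given in the sources used here.

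Members and gene lists were chosen with earlier results of these data known. Named are the rule's genes, the transmitter lists, and in other lists and over all genes those called with the largest differences. Each comparison was repeated under 19 alternatives, 3 of them chosen after the data were seen. Some genes, and a setting that needs them, are not reported here.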

Additional observations from a re-analysis of the deposited data

Results flagged for a closer look

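*Asl*, which encodes argininosuccinate lyase, was lower on the Etv1 side than on the Bnc2 side in 3 of 3 mice (85.1, 51.9 and 36.0 CPM against 103, 143 and 124 CPM), while *Nos1*-positive *Etv1* cells (171, 182 and 178 CPM) lay above *Chat*-positive *Bnc2* cells (0, 167 and 176 CPM) in 3 of 3 mice, a difference of differences of -2.47 ± 1.17 on the log2 scale that was not past the threshold (limma adjusted p = 0.787). The 0 in mouse 1 comes from 2 cells, where 1 UMI is 186 CPM, so it carries no information. In mice 2 and 3 the *Nos1*-positive and *Chat*-positive values were close. Between the sides alone, limma called *Asl* lower on the Etv1 side in mice 2 and 3, where 15.6% of all genes were called.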

How the results depend on the processing

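Of the 42 genes called between the sides, 42, 40 and 36 were also called without mouse 1, 2 and 3 and 35 from means of natural log values, and all those tested kept their direction in every alternative. Leaving out a mouse could not turn a gene that ran 1 way in all 3, and the other alternatives reuse many of the same cells, so kept direction is weak support. The count of 42 ran from 86 to 1190 without 1 mouse, and was 0 with a pseudocount of 2 CPM (797 at an unadjusted p under 0.05), 0 without a filter (1092), 0 without cells with *Sox10* (694), 19 with whole-cell totals (3 higher and 16 lower on the Etv1 side, against 11 and 31), 64 with *Etv1* at 1 UMI, 2 with *Bnc2* at 2 UMIs, 13 with no limit on *Acta2*, 6 without the deepest 5% of cells and 91 from means of natural log values (7 higher and 84 lower). Against *Nos1*-positive *Etv1* cells the count of 103 ran from 14 to 1868 without 1 mouse, and was 4 and 156 with pseudocounts of 2 and 50 CPM, 0 without a filter (1930 at an unadjusted p under 0.05), 2 after thinning to 3000 UMIs, 668 with *Etv1* at 1 UMI, 0 without *Sox10* cells (776), 42 without the deepest 5% of cells and 348 from means of natural log values. Against *Chat*-positive *Bnc2* cells the count of 0 became 2 to 7 without 1 mouse, 1 with a pseudocount of 50 CPM, 6 with *Bnc2* at 2 UMIs and 14 with no limit on *Acta2*. The difference of differences gave 7 to 273 genes without 1 mouse, 1 with a filter at 100 CPM, 192 with *Bnc2* at 2 UMIs, 1 without *Sox10* cells and 1 from means of natural log values. Thinning gave 33 genes between the sides (16 higher and 17 lower). Without the replicate block, which ignores the pairing by mouse, the 4 counts were 35, 23, 0 and 0. Leaving out *Sox10* cells, and the settings that follow, were chosen after seeing the data. With mouse 1 also left out, leaving out *Sox10* cells gave 484, 666, 2 and 41 genes, and thinning gave 282, 66, 4 and 0. In the last setting the *Gal* difference between the Etv1 side and *Nos1*-positive cells turned to 0.59. After thinning, cells with *Vip* and *Cartpt* on the Etv1 side made up 29.2% and 35.3% in place of 41.4% ± 9.13 and 50.4% ± 7.98 (SD, n = 3 mice), and cells with *Tac1* on the Bnc2 side 56.9% in place of 69.6% ± 5.94. Thinning can only take a gene away from a cell that it keeps, so lower shares are built into it. The causes of the other changes were not tested. Of the 33 named genes tested between the sides and not called, 15 changed sign in some alternative. In mouse 1, 1 UMI is 12.2 CPM on the Etv1 side and 14.7 CPM on the Bnc2 side, which bounds what can be read there.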
